A study of Mus musculus with 12 samples.

Results

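A run of neighbouring genes on the distal arm of mouse chromosome 4, from Ctnnbip1 to Rpl22, had for the most part a lower RNA level in breast tumours that overexpress p66ShcA, with a median of 53.5% of the p66Low level in parental and 57.7% in aggressive tumours. The 34 genes were taken from the 39017 genes of the deposited count table by symbol, as named genes between bases 149518236 and 152334071 of chromosome 4 in the mm10 genome build. They were chosen by position and on their log2 differences between p66High and p66Low tumours, with earlier results of these tumours known, so those values are described here without a test. Of the 34 genes, 30 were measured at 1 CPM (counts for each 1 M counted) or more in at least 1 group mean, and the same 30 passed the filter on low counts. The other 4, Slc2a5, Slc45a1, Uts2 and Hes2, stayed below that level in every group and were not fitted. Slc2a5, a fructose transporter, came nearest to the limit, with a highest group mean of 0.339 CPM in p66High parental tumours. Just inside the limit was Tnfrsf9, whose highest group mean was 3.18 CPM in p66Low aggressive tumours. Its means were 0.562 CPM in p66High parental, 0.367 CPM in p66Low parental and 0.927 CPM in p66High aggressive tumours. It was thus kept only through the group where it was high, and nothing is read from its calls below. Uts2 had no count in any tumour, at floors of 3 counts worth 0.0394 to 0.173 CPM per library, and Hes2 and Slc45a1 had group means of at most 0.0262 and 0.0288 CPM. Floors cover counting error only.

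The tumours came from NIC cells, an ErbB2-positive mouse breast cancer line that lacks p66ShcA, a Shc adaptor protein with a role in redox signalling. Cells were injected into a mammary fat pad (the fourth) of FVB/N females aged 8 to 12 weeks, and each of 4 groups held 3 bulk tumours. The p66High parental tumours came from NIC cells engineered to make p66ShcA at all times, and the p66Low parental tumours from the NIC cells that lack it. The p66High aggressive and p66Low aggressive tumours came from the same 2 lines after serial passage in the fat pad, with repeated selection in mice and return to culture. Each condition is therefore 1 cell line, the sources do not say whether the p66High line is a clone or a pool, and p66ShcA level and line history cannot be told apart. The labels do not say that all tumours came from separate mice, and some titles within a p66High group share a number, so the p-values speak of the spread among these tumours, which may be technical.

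Shc1, counted over all its isoforms, separated the groups as labelled. It ranged from 223 to 271 CPM in p66High parental tumours, against 59.0 to 69.4 CPM in p66Low parental tumours, and from 237 to 774 CPM in p66High aggressive tumours, against 61.0 to 69.9 CPM in p66Low aggressive tumours. Libraries held 17.4 to 76.1 M counts (mega-counts). Summed epithelial markers (Epcam, Krt8, Krt18, Krt19 and Cdh1) ranged from 1903 to 2996 CPM and none was at 0 in any tumour. Of the 12 libraries, 3 stood apart in all 6 lymph node stroma markers summed, and are called lymph-rich here: p66High parental replicate 3 with 51.1 CPM and p66Low aggressive replicates 1 and 2 with 157 and 227 CPM, against 0.0704 to 1.76 CPM in the other 9. The same 3 had 23.4, 84.2 and 118 CPM of 4 summed B cell markers, against at most 1.35 CPM in the rest. Leaving these 3 out leaves p66Low aggressive replicate 3 alone in its group, so p66Low aggressive values then rest on that tumour. Where leaving these 3 libraries out ended a call on a named gene or moved its linear fold by over 1.5 times, the value without them is given too. This was not examined for Axin2, for genes outside the run named by position, or for interaction tests of genes outside the run. In bulk tumour, fewer cells of a type and less RNA per cell cannot be told apart.

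As background, a gene present in fewer copies usually gives proportionally less RNA, and a stretch of chromosome that is lost or gained in a tumour clone shifts most of its expressed genes together. The distal part of mouse chromosome 4 corresponds to the end of the short arm of human chromosome 1, a region known for frequent deletion in tumours. Copy number was not measured in these data, so the values below are RNA levels only.

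The run holds genes of several unrelated functions: glycolysis and sugar handling (Eno1, H6pd), growth factor and PI3-kinase signalling (Errfi1, Pik3cd), oxidative stress (Park7), the circadian clock (Per3) and the ribosome (Rpl22). Promoters were found for 28 of the 34 genes in RefSeq's table of mouse promoters (GRCm38.p6, the same coordinates as mm10). Each covers 250 bases before and 50 after a transcription start in RefSeq. For some genes that start lies inside the annotated gene, as for Park7 at 150909921 in a gene that starts at 150914437. Those of 4 genes are shown because the genes bracket the behaviours in the run: Park7 followed the common shift, Eno1 went below it in parental tumours, Errfi1 overlapped between the groups and Gpr153 was higher in p66High tumours. Capitals mark the dinucleotide CG.

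Eno1 (chr4:150236458-150236757, plus strand): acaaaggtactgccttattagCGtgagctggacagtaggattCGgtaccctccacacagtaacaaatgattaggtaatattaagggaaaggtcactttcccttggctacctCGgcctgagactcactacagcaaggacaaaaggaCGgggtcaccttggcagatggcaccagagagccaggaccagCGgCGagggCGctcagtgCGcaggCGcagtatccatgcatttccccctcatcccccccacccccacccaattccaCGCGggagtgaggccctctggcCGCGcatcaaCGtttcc

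Park7 (chr4:150909872-150910171, minus strand): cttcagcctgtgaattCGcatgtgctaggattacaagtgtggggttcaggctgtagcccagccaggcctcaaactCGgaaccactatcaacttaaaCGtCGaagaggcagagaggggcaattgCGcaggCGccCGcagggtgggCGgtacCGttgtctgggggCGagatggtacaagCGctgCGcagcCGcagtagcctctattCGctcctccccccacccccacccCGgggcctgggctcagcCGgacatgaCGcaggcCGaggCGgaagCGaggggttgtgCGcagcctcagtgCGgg

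Errfi1 (chr4:150853546-150853845, plus strand): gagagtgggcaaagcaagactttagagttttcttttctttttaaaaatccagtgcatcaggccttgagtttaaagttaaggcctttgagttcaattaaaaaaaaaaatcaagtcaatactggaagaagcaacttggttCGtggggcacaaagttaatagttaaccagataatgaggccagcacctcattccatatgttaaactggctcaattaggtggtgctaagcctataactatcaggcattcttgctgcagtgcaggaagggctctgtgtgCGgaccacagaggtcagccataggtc

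Gpr153 (chr4:152273862-152274161, plus strand): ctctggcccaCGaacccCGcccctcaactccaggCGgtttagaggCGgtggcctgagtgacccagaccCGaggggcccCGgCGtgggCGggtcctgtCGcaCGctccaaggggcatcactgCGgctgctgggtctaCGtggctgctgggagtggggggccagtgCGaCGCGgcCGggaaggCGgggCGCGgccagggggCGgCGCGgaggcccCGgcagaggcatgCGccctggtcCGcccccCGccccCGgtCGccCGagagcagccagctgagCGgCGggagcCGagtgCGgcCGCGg

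The Gpr153 promoter window was rich in these dinucleotides, with 35, against 22 for Park7, 14 for Eno1 and 2 for Errfi1. The 28 promoters held a median of 22 of them (2 to 48) and had a median GC content of 65.3%, against medians of 7 (0 to 65) and 52.7% over 27025 RefSeq promoters. Because Eno1 belongs to glycolysis and Per3 to the clock, 2 core motifs were counted on both strands: ACGTG, the core that hypoxia-inducible factors bind, and CACGTG, the E-box of the clock factors, which contains the first. The first was found in 4 of the 28 promoters (14.3%), against 19.6% of all RefSeq promoters. The E-box was found in 1 of 28 (3.57%), that of Slc25a33, against 7.22% of all. These are matches of letters in a window and not binding sites.

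The lower level was shared by most of the run in both p66 comparisons. The median log2 difference of the 30 genes was -0.90 in p66High parental against p66Low parental tumours, which is 53.5% of the p66Low level, and 27 of 30 genes lay below 0. In p66High aggressive against p66Low aggressive tumours it was -0.79, or 57.7% of the p66Low level, and 28 of 30 lay below 0. Over all 19370 genes tested the medians were -0.01 and 0.02. From the lower to the upper quartile the 30 genes spanned -1.08 to -0.59 in parental and -0.97 to -0.66 in aggressive tumours, against -0.25 to 0.26 and -0.34 to 0.28 over all genes tested. Both log2 differences were below 0 for 26 of the 30 genes, where 24% of all genes tested had that pattern. Both lay between -1.2 and -0.5 for 17 of the 30, where 1.38% of all genes did. Since these comparisons led to the choice of the genes, nothing is read from the difference between these shares. The 2 p66 comparisons share no tumour. Without the 3 lymph-rich libraries, 27 and 29 of 30 genes lay below 0, the second with p66Low aggressive replicate 3 alone in its group.

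Many genes also separated tumour by tumour. Since the genes were chosen on p66 differences in these tumours, nothing is read from the counts and shares that follow. Every p66High tumour lay below every p66Low tumour, 6 against 6, for 18 of the 30 genes, where 1.97% of all genes tested did so. These were Ctnnbip1, Clstn1, Tmem201, Slc25a33, Gpr157, Rere, Park7, Per3, Vamp3, Camta1, Dnajc11, Thap3, Phf13, Klhl21, Zbtb48, Nol9, Acot7 and Icmt. Without the 3 lymph-rich libraries, 5 p66High against 4 p66Low tumours, it was 19 of 30, against 3.82% of all genes. Fewer tumours separate more easily. In 1 of 30 genes, Gpr153, every p66High tumour lay above every p66Low tumour, where 3.25% of all genes did so. Within parental tumours, 24 genes had all p66High tumours below all p66Low tumours (14.2% of all genes) and 1 had them above (15.6%). Within aggressive tumours the counts were 26 below (18.7% of all genes) and 1 above (19.4%). The groups overlapped for Pik3cd, H6pd, Errfi1, Tnfrsf9 and Tnfrsf25 in parental tumours and for Eno1, Errfi1 and Espn in aggressive tumours.

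Set against each gene's mean over the 12 tumours, on log2(CPM + 0.5), the median of the 30 genes was -0.40, -0.49 and -0.40 in the p66High parental tumours, against 0.42, 0.43 and 0.42 in the p66Low parental tumours. It was -0.38, -0.36 and -0.32 in the p66High aggressive tumours, against 0.37, 0.39 and 0.47 in the p66Low aggressive tumours. All 6 p66High tumours were low and all 6 p66Low tumours high, which the choice of the genes favoured. Within each group the 3 values were close together. The same median over the 781 coding genes of chromosome 4 outside Mtor to Morn1 stayed between -0.04 and 0.04 in every tumour. Those ends were picked after their values were seen. Genes between them and the run moved with it. The 14 before it had -0.66 to -0.35 in p66High and 0.34 to 0.54 in p66Low tumours. The 17 after it had -0.60 to -0.20 and 0.31 to 0.50.

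**Figure D1:**
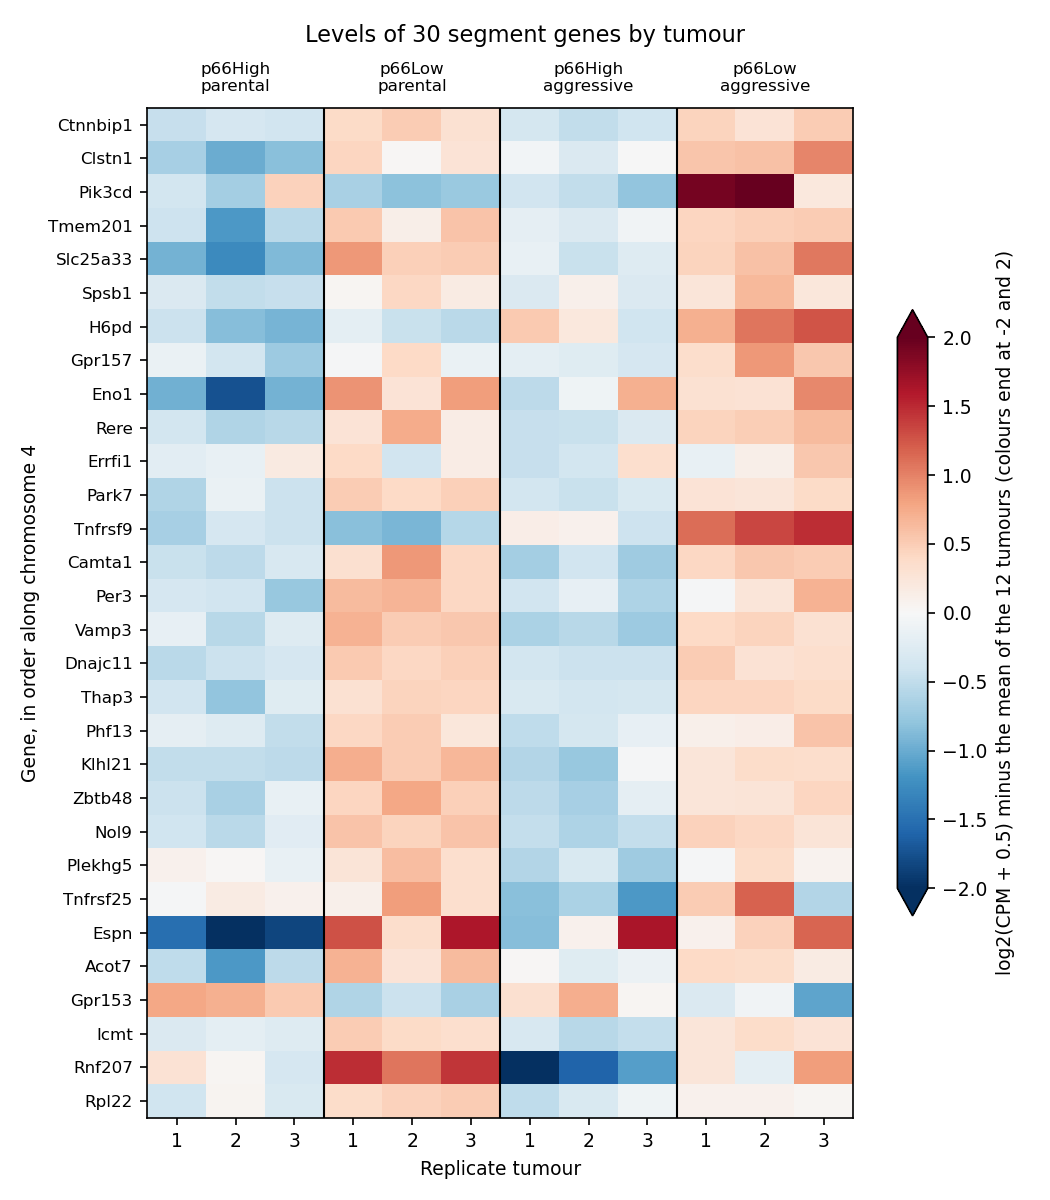
Levels of the 30 genes in each of the 12 tumours, as log2(CPM + 0.5) minus the gene's mean over the 12, with genes in order along chromosome 4 (top to bottom) and 3 tumours per group. Most rows are blue in both p66High groups and red in both p66Low groups, Gpr153 is the other way round, and Pik3cd and Tnfrsf9 are dark red in p66Low aggressive tumours.

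The shift did not end with the named genes. The 14 coding genes analysed at 1 CPM or more from Mtor (148448611 to 148557683) up to Ctnnbip1 had median log2 differences of -0.92 in parental and -0.89 in aggressive tumours. The 17 from Rpl22 to Morn1 (155086577 to 155145505) had medians of -0.73 and -0.88. Further out than these outer genes, which were picked after their values were seen, Fbxo2 had log2 differences of -0.21 in parental and 1.23 in aggressive tumours, and Ski, a regulator of TGF-beta signalling, had 0.00 and 0.28. Mtor, a kinase that controls growth, had -0.72 and -0.90. The 39 coding genes beyond Morn1 had medians of 0.00 and 0.00, and the 742 before Mtor had 0.00 and 0.02.

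**Figure D2:**
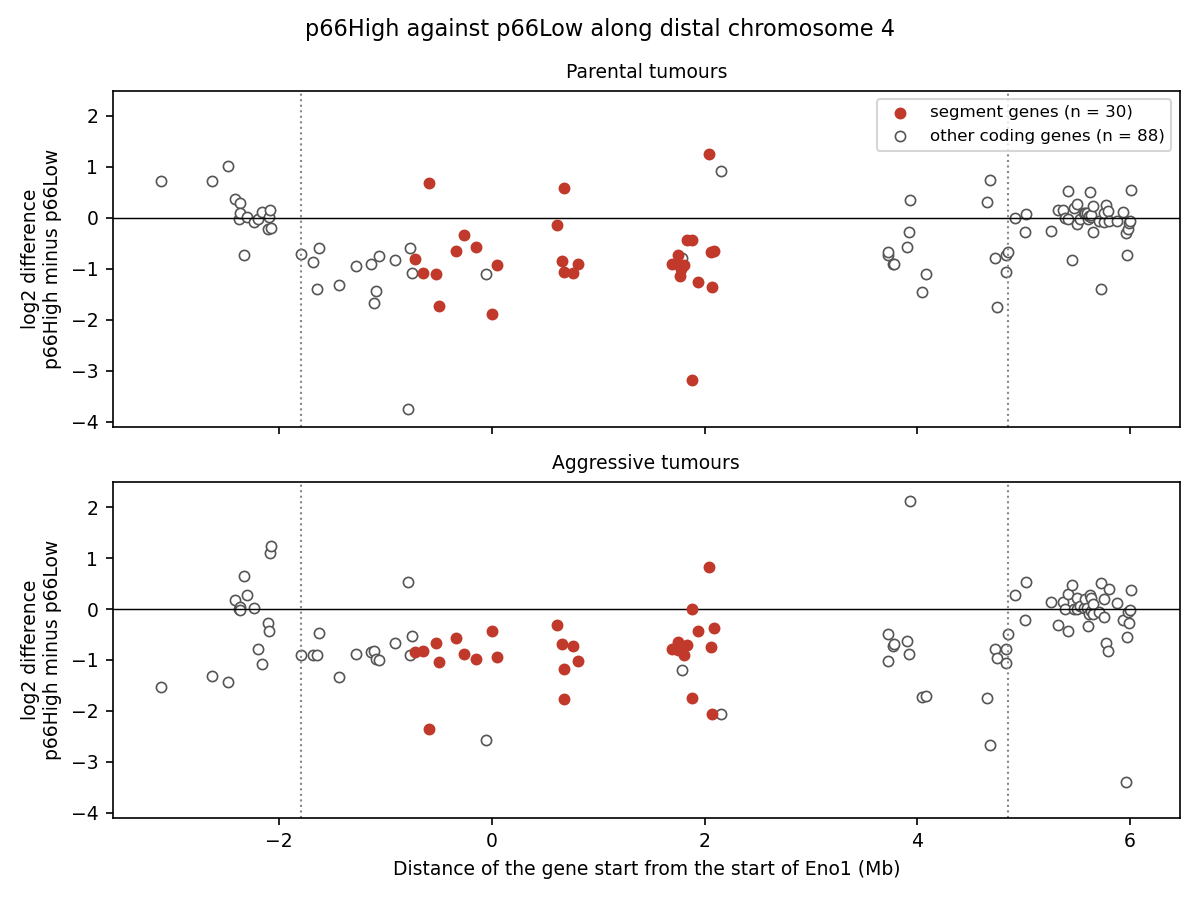
Log2 difference, p66High minus p66Low, of each coding gene at 1 CPM or more against the distance in Mb of its start from the start of Eno1, for parental (top) and aggressive (bottom) tumours, with the 30 genes filled and 88 others open. Between the dotted lines at Mtor and Morn1 the medians of the 30 genes and of both flanks lie between -0.92 and -0.73. Beyond the lines the medians over the rest of the chromosome lie between 0.00 and 0.02. Most of its 742 genes before Mtor are not drawn.

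The nearest neighbours on either side behaved alike with a few exceptions. Lzic, the gene just before Ctnnbip1, had log2 differences of -1.09 and -0.53 in parental and aggressive tumours, and Nmnat1, an NAD-synthesis enzyme of the nucleus, had -0.60 and -0.90. Ube4b and Kif1b further out had -0.82 and -0.67, and -0.76 and -1.0. Rbp7, a retinol-binding protein gene known from fat and endothelium, had 8.07, 13.4 and 7.97 CPM in p66High parental tumours, against 147, 69.9 and 177 CPM in p66Low parental tumours. In aggressive tumours it had 8.07, 6.32 and 10.5 CPM in p66High, against 7.19, 6.15 and 4.10 CPM in p66Low. The p66Low parental tumours stood far above the other 9. On the far side, Kcnab2, a potassium channel subunit gene, had a log2 difference of 0.92 in parental and -2.06 in aggressive tumours. It had 17.2 and 19.8 CPM in p66Low aggressive replicates 1 and 2, which are lymph-rich, and 5.22 CPM in replicate 3. Its difference without the lymph-rich libraries was not examined. A430005L14Rik, Dffb and Lrrc47 lay between -0.92 and -0.67 in parental and between -1.02 and -0.50 in aggressive tumours.

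Among the metabolic genes, Eno1, the glycolytic enolase (chr4:150236721-150248879, plus strand), stood furthest below the common level in parental tumours of the genes with more than 50 CPM. It had 68.0, 39.3 and 68.5 CPM in p66High parental tumours, against 249, 162 and 237 CPM in p66Low parental tumours. The aggressive tumours had 92.8, 125 and 218 CPM in p66High, against 164, 162 and 259 CPM in p66Low. The parental groups were far apart, while the aggressive groups overlapped through p66High aggressive replicate 3. The log2 differences were -1.88 (SE 0.33) in parental and -0.43 (SE 0.32) in aggressive tumours, 27.2% and 74.4% of the p66Low level. The aggressive difference was -0.82 without the 3 lymph-rich libraries and ranged from -0.86 to -0.16 over the 19 alternative fits. The p66High aggressive replicate 3 tumour also had the highest Shc1 level of the 12, at 774 CPM, and the lowest sums of 5 fibroblast markers, at 798 CPM, and of 6 macrophage markers, at 147 CPM, and the part of these differences in its Eno1 level was not tested.

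The Eno1 values are uncertain in 1 respect. A processed copy of Eno1 on chromosome 18, Gm5506 (Eno1b), was given more counts than Eno1 itself, and Eno1 held 42.7% to 47.4% of their sum in every tumour. How reads that fit both were assigned is not given in the sources used here. Summed with its copy, Eno1 had log2 differences of -1.90 (SE 0.32) in parental and -0.43 (SE 0.31) in aggressive tumours, so the difference did not turn on the split.

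Slc25a33, a pyrimidine nucleotide carrier of mitochondria, had 5.59, 4.36 and 5.88 CPM in p66High parental tumours, against 20.9, 15.7 and 16.2 CPM in p66Low parental tumours. Values in aggressive tumours were 10.03, 8.13 and 9.27 CPM in p66High, against 15.5, 17.1 and 23.7 CPM in p66Low. No p66High tumour reached a p66Low one, and the log2 differences were -1.73 (SE 0.19) and -1.04 (SE 0.19). H6pd starts the pentose phosphate route inside the endoplasmic reticulum. It had 31.6, 23.4 and 22.2 CPM in p66High parental tumours, against 37.0, 31.2 and 29.1 CPM in p66Low parental tumours, and the groups overlapped. Its levels in aggressive tumours were 61.7, 49.2 and 32.4 CPM in p66High, against 69.98, 89.8 and 103 CPM in p66Low, with no overlap. Acot7, an acyl-CoA thioesterase, had log2 differences of -1.26 in parental and -0.43 in aggressive tumours. Icmt, which methylates prenylated CAAX proteins such as Ras, had -0.66 and -0.75.

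Park7 (DJ-1), a protein that protects cells from oxidative stress, was among the steadiest. It had 56.7, 78.2 and 63.9 CPM in p66High parental tumours, against 123, 113 and 120.1 CPM in p66Low parental tumours. Aggressive tumours showed 66.2, 63.0 and 69.1 CPM in p66High, against 104, 102 and 112 CPM in p66Low. The highest p66High tumour stayed below the lowest p66Low tumour, and the log2 differences were -0.84 (SE 0.11) and -0.68 (SE 0.11).

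Among the signalling genes, Errfi1 overlapped between the groups in both comparisons and Gpr153 was higher in p66High tumours. Pik3cd and Tnfrsf9 had log2 differences above 0 in parental tumours and below 0 in aggressive ones. Errfi1 (Mig-6) encodes a feedback inhibitor that binds the kinase domains of EGFR and ErbB2. It had 146, 152 and 192 CPM in p66High parental tumours, against 224, 129 and 187 CPM in p66Low parental tumours. In aggressive tumours it had 122, 131 and 213 CPM in p66High, against 152, 183 and 245 CPM in p66Low. The groups overlapped in both comparisons, and the log2 differences were -0.14 (SE 0.25) and -0.32 (SE 0.25). The aggressive difference was -0.64 without the 3 lymph-rich libraries.

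Gpr153, an orphan G protein-coupled receptor, had 31.7, 30.4 and 26.7 CPM in p66High parental tumours, against 11.9, 13.6 and 11.5 CPM in p66Low parental tumours. The aggressive tumours had 23.2, 30.6 and 18.9 CPM in p66High, against 14.9, 17.5 and 8.59 CPM in p66Low. All p66High tumours were above all p66Low tumours, with log2 differences of 1.26 (SE 0.24) and 0.83 (SE 0.24), or 240% and 178% of the p66Low level. Without the 3 lymph-rich libraries the aggressive difference was 1.51. Its neighbours in the run, Acot7 and Icmt, were lower in both comparisons.

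Pik3cd, the PI3-kinase delta subunit known mainly from leukocytes, had 8.46, 6.75 and 15.5 CPM in p66High parental tumours, against 6.86, 6.05 and 6.42 CPM in p66Low parental tumours. Values in aggressive tumours were 8.43, 7.70 and 6.21 CPM in p66High, against 43.0, 58.4 and 12.9 CPM in p66Low. The 3 highest values, 58.4, 43.0 and 15.5 CPM, were those of the 3 libraries rich in lymph node genes. The 6 T cell markers summed to 73.6, 129 and 24.6 CPM in p66Low aggressive tumours and 23.1 CPM in p66High parental replicate 3, against 1.29 to 6.47 CPM in the other 8, and their part in the Pik3cd values was not tested. Its log2 differences were 0.68 (SE 0.45) in parental and -2.35 (SE 0.46) in aggressive tumours, and 0.25 and -0.78 without the 3 lymph-rich libraries.

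Tnfrsf9 (4-1BB, CD137), a costimulatory receptor of activated T cells, had 0.429, 0.668 and 0.591 CPM in p66High parental tumours, against 0.324, 0.284 and 0.494 CPM in p66Low parental tumours. Its levels in aggressive tumours were 1.12, 1.06 and 0.604 CPM in p66High, against 2.71, 3.24 and 3.58 CPM in p66Low. It was highest in p66Low aggressive replicate 3, which had 1.08 CPM of summed lymph node stroma markers and 0.799 CPM of B cell markers, but 24.6 CPM of T cell markers. The part of the T cell markers in the Tnfrsf9 values was not tested. Its log2 differences were 0.58 (SE 0.34) and -1.77 (SE 0.31).

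Tnfrsf25 (DR3), a death-domain receptor of lymphocytes, had 2.3, 2.67 and 2.52 CPM in p66High parental tumours, against 2.54, 4.59 and 3.09 CPM in p66Low parental tumours. Aggressive tumours showed 1.09, 1.34 and 0.776 CPM in p66High, against 3.54, 5.90 and 1.4 CPM in p66Low. The aggressive groups were separate by a narrow gap, with the lymph-rich replicates 1 and 2 far above replicate 3. The log2 differences were -0.44 (SE 0.43) and -1.75 (SE 0.45), and the second was -0.37 without the lymph-rich libraries.

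Plekhg5, an activator of RhoA, had 17.8, 17.0 and 15.1 CPM in p66High parental tumours, against 20.2, 25.9 and 21.3 CPM in p66Low parental tumours. In aggressive tumours it had 11.0, 13.5 and 10.01 CPM in p66High, against 16.6, 21.8 and 17.6 CPM in p66Low. Both pairs of groups were separate, with log2 differences of -0.43 (SE 0.15) and -0.70 (SE 0.16). Clstn1 (calsyntenin), a transmembrane cargo adaptor for kinesin, had 223, 178 and 197 CPM in p66High parental tumours, against 475, 357 and 425 CPM in p66Low parental tumours. The aggressive tumours had 339.8, 289 and 351 CPM in p66High, against 517, 532 and 697 CPM in p66Low. The log2 differences were -1.07 (SE 0.15) and -0.83 (SE 0.15). Ctnnbip1 (ICAT), which blocks beta-catenin from its TCF partners, had -0.81 and -0.84 (SE 0.09 each). Spsb1, which targets inducible nitric oxide synthase for degradation, had -0.66 and -0.56, and Gpr157, a G protein-coupled receptor, had -0.57 and -0.98.

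Among regulators of transcription, Per3, a period protein of the circadian clock, had 23.0, 22.3 and 17.1 CPM in p66High parental tumours, against 45.3, 47.2 and 39.2 CPM in p66Low parental tumours. Values in aggressive tumours were 22.3, 25.9 and 18.8 CPM in p66High, against 28.7, 34.6 and 47.8 CPM in p66Low. The groups were separate, with log2 differences of -1.08 (SE 0.19) and -0.73 (SE 0.19).

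Camta1, a calmodulin-binding transcription activator, had 3.59, 3.38 and 3.99 CPM in p66High parental tumours, against 6.45, 9.66 and 6.97 CPM in p66Low parental tumours. Its levels in aggressive tumours were 2.99, 3.81 and 2.93 CPM in p66High, against 6.93, 7.65 and 7.46 CPM in p66Low. All p66High tumours were below all p66Low tumours, with log2 differences of -1.07 (SE 0.19) and -1.18 (SE 0.19). The annotated span of Camta1 covers Per3 and Vamp3 on the same strand and Tnfrsf9 and Uts2 on the other, so reads of these genes could not always be told apart. Rere, a corepressor, had -0.92 and -0.94. The zinc finger and PHD finger genes Zbtb48, a telomere-binding factor, and Phf13, a reader of methylated histone H3, had -1.01 and -0.80, and -0.72 and -0.65. Thap3 had -0.90 and -0.80.

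Among genes of protein synthesis and turnover, Rpl22, a protein of the large ribosomal subunit, had 175, 239.9 and 187 CPM in p66High parental tumours, against 301, 319 and 330.4 CPM in p66Low parental tumours. Aggressive tumours showed 164, 187 and 218 CPM in p66High, against 247, 245 and 239.5 CPM in p66Low. Both pairs were separate, and the log2 differences were -0.66 (SE 0.13) and -0.37 (SE 0.13). Nol9, a kinase of ribosomal RNA processing, had -0.92 and -0.91. Dnajc11, a mitochondrial J-domain protein, had -0.91 and -0.79, and Klhl21, an adaptor of a cullin ubiquitin ligase used in cell division, had -1.15 and -0.76.

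Rnf207, a RING finger protein known from heart muscle, had the lowest log2 difference averaged over both comparisons. It had 15.6, 13.1 and 10.04 CPM in p66High parental tumours, against 36.5, 27.4 and 35.1 CPM in p66Low parental tumours. In aggressive tumours it had 2.49, 3.89 and 5.65 CPM in p66High, against 15.3, 11.1 and 23.2 CPM in p66Low. The log2 differences were -1.35 (SE 0.31) and -2.06 (SE 0.33). Rnf207 overlaps the end of Icmt on the opposite strand, and the strand setting of the counting is not given in the sources used here.

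Of the cytoskeletal and membrane genes, Espn (espin), an actin-bundling protein of microvilli, had 5.82, 2.78 and 4.55 CPM in p66High parental tumours, against 43.0, 22.4 and 55.1 CPM in p66Low parental tumours. The aggressive tumours had 9.52, 18.6 and 55.6 CPM in p66High, against 18.6, 24.4 and 39.8 CPM in p66Low. The parental groups were far apart and the aggressive groups overlapped, with the highest value of all 12 in p66High aggressive replicate 3. The log2 differences were -3.18 (SE 0.61) and 0.00 (SE 0.55). The aggressive difference was -1.01 without p66High aggressive replicate 3 and -0.50 without the 3 lymph-rich libraries. Vamp3, a SNARE protein of recycling endosomes, had -0.91 and -1.03, and Tmem201, a protein of the inner nuclear membrane, had -1.11 and -0.66.

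Scaled per kilobase of exon, Rpl22, Clstn1 and Errfi1 had the highest levels of the run in every group. Rpl22 averaged 69.0 RPKM (CPM per kilobase of exon) in p66High parental and 109 RPKM in p66Low parental tumours, and 65.1 RPKM in p66High aggressive and 83.9 RPKM in p66Low aggressive tumours. At the low end, Camta1 averaged between 0.223 and 0.528 RPKM over the 4 groups and Tnfrsf9 between 0.135 and 1.17 RPKM.

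**Figure D3:**
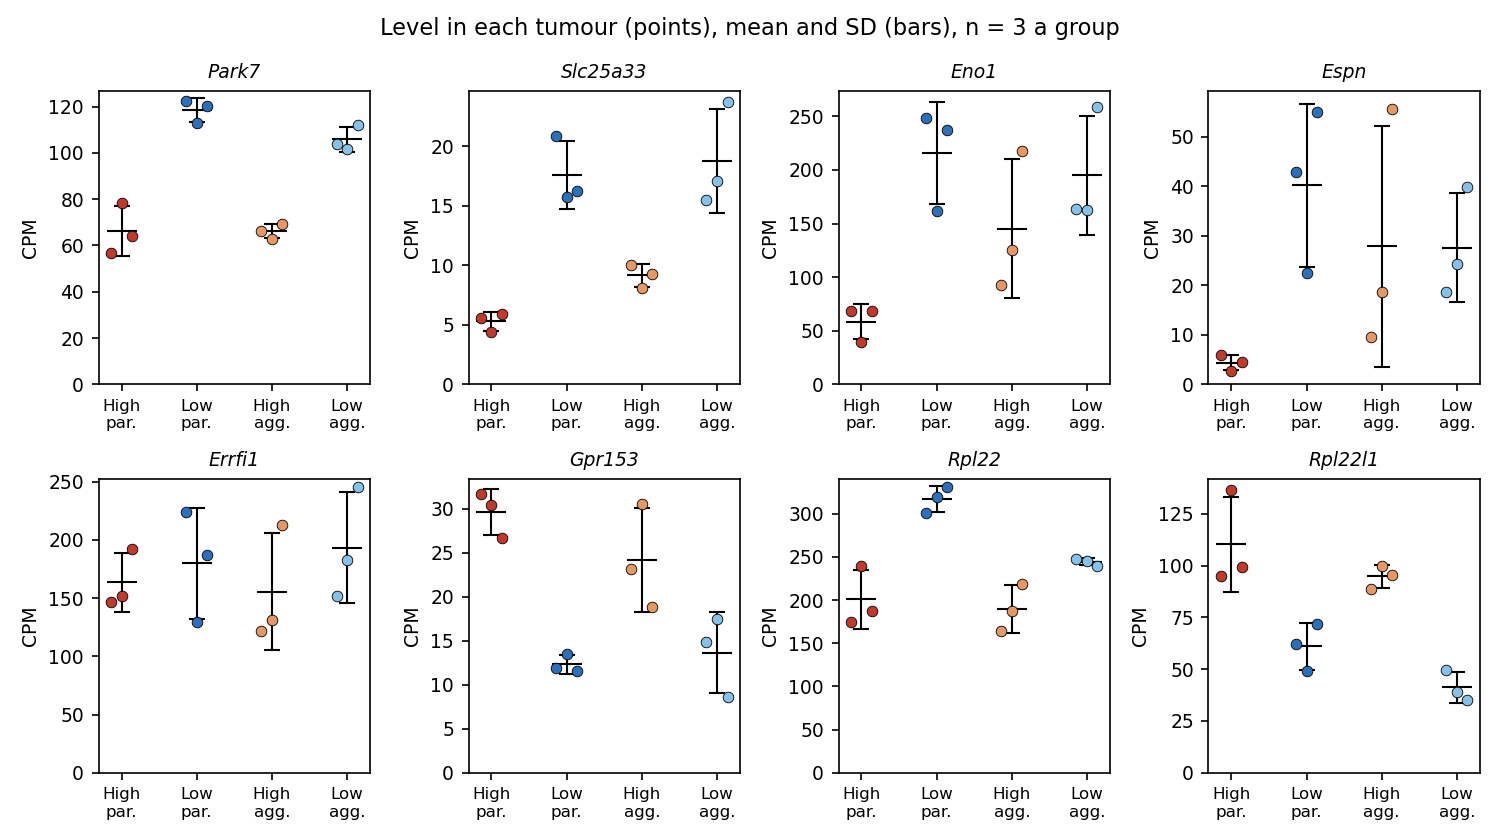
CPM of 7 genes of the run and of Rpl22l1, on chromosome 3, in each tumour (points) with the group mean and SD (bars, n = 3), in the order p66High parental, p66Low parental, p66High aggressive and p66Low aggressive. Park7, Slc25a33 and Rpl22 are lower in p66High within each pair, the parental pair is separate and the aggressive pair overlaps for Eno1 and Espn, both pairs overlap for Errfi1, and Gpr153 and Rpl22l1 are higher in p66High.

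In vivo selection did not move the middle of the run in either line, while single genes changed in 1 line or both. The median log2 difference of the 30 genes was 0.01 in p66High aggressive against p66High parental tumours and -0.08 in p66Low aggressive against p66Low parental tumours. Within p66High, 6 of 30 genes passed the test, where 5.94% of all genes tested did: Clstn1, Slc25a33, H6pd, Eno1 and Espn rose (3.11% of all genes rose) and Rnf207 fell (2.82% fell). Within p66Low, 5 of 30 passed, where 16.6% of all genes did. Clstn1, Pik3cd, H6pd and Tnfrsf9 rose (9.6% of all genes rose) and Rnf207 fell (7.03% fell). Tnfrsf9 was kept at 1 CPM only through p66Low aggressive tumours, so nothing is read from its call. The test was edgeR's quasi-likelihood test with Benjamini-Hochberg adjustment over 19370 genes. When tumours with a shared title number were summed, none of the 6 p66High calls held, with edgeR adjusted p from 0.0739 for Clstn1 to 0.193 for H6pd, and 10 of the 30 genes were at an unadjusted p under 0.05. All 12 tumours of these comparisons also entered the p66 comparisons on which the genes were chosen.

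H6pd, Clstn1 and Rnf207 passed in both lines. H6pd averaged 47.8 ± 14.7 CPM in p66High aggressive and 25.7 ± 5.12 CPM in p66High parental tumours (SD, n = 3 each), a log2 rise of 0.89 (SE 0.23) with an edgeR adjusted p of 0.0407. It averaged 87.6 ± 16.6 CPM in p66Low aggressive and 32.4 ± 4.12 CPM in p66Low parental tumours, a log2 rise of 1.44 (SE 0.23) with an edgeR adjusted p of 0.00254. All 3 aggressive tumours were above all 3 parental ones in both lines. The p66Low call held in all 19 alternative fits and the p66High call in 9 of 19, with a rise of 0.80 and an adjusted p of 0.130 without the 3 lymph-rich libraries.

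Rnf207 fell to 4.01 ± 1.59 CPM in p66High aggressive tumours, against 12.9 ± 2.80 CPM in p66High parental tumours, a log2 difference of -1.70 (SE 0.32) with an edgeR adjusted p of 0.0115. It fell to 16.5 ± 6.16 CPM in p66Low aggressive tumours, against 33.0 ± 4.91 CPM in p66Low parental tumours, a log2 difference of -0.99 (SE 0.31) with an edgeR adjusted p of 0.0456. No aggressive tumour reached a parental one of its line. The p66High call was lost in 1 of 19 alternatives, where tumours with a shared title number were summed (adjusted p 0.0974), and the p66Low call in 13 of 19, with -0.51 and an adjusted p of 0.522 without the lymph-rich libraries. Clstn1 averaged 327 ± 33.1 CPM in p66High aggressive and 199 ± 22.5 CPM in p66High parental tumours, a log2 rise of 0.71 (SE 0.15) with an edgeR adjusted p of 0.0172. It averaged 582 ± 99.5 CPM in p66Low aggressive and 419 ± 59.4 CPM in p66Low parental tumours, a log2 rise of 0.47 (SE 0.15) with an edgeR adjusted p of 0.0486. These calls were lost in 6 and 11 of 19 alternatives. Without the lymph-rich libraries the rises were 0.71 and 0.73, with adjusted p of 0.0585 and 0.0908.

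Eno1, Espn and Slc25a33 passed in p66High and not in p66Low. Eno1 averaged 145 ± 65.0 CPM in p66High aggressive and 58.6 ± 16.7 CPM in p66High parental tumours, a log2 rise of 1.31 (SE 0.33) with an edgeR adjusted p of 0.0387. In p66Low it averaged 195 ± 55.4 CPM in aggressive and 216 ± 47.2 CPM in parental tumours, with a log2 difference of -0.15 and an adjusted p of 0.810. The difference between the lines in this change was 1.45 on the log2 scale (SE 0.46), with an edgeR adjusted p of 0.0592 for the interaction. Summed with its copy, Eno1 had a log2 rise of 1.29 in p66High with an adjusted p of 0.0363. The Eno1 call was lost in 10 of 19 alternatives. The rise was 1.44 with an adjusted p of 0.0819 without the lymph-rich libraries, and 0.88 with an adjusted p of 0.138 without p66High aggressive replicate 3.

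Espn averaged 27.9 ± 24.4 CPM in p66High aggressive and 4.38 ± 1.53 CPM in p66High parental tumours, a log2 rise of 2.65 (SE 0.60) with an edgeR adjusted p of 0.0251. Slc25a33 averaged 9.14 ± 0.954 CPM in p66High aggressive and 5.28 ± 0.806 CPM in p66High parental tumours, a log2 rise of 0.79 (SE 0.19) with an edgeR adjusted p of 0.0358. Each was higher in all 3 aggressive than in all 3 parental tumours of the p66High line. Without p66High aggressive replicate 3 alone the Espn rise was 1.65 with an adjusted p of 0.0814, and the call was lost in 6 of 19 alternatives. The Slc25a33 call was lost in 8 of 19, among them each fit that left out a single p66High tumour. Without the lymph-rich libraries the rise was 2.68 for Espn (adjusted p 0.0944) and 0.88 for Slc25a33 (adjusted p 0.0538). The change of Slc25a33 differed between the lines by 0.69 on the log2 scale (SE 0.27), with an edgeR adjusted p of 0.114 for the interaction.

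Tnfrsf9 and Pik3cd passed in p66Low and not in p66High. Tnfrsf9 averaged 3.18 ± 0.439 CPM in p66Low aggressive and 0.367 ± 0.111 CPM in p66Low parental tumours. Its log2 rise was 3.09 (SE 0.33) with an edgeR adjusted p of 0.000316. Only in p66Low aggressive tumours did its group mean reach 1 CPM, so nothing is read from this call. Pik3cd averaged 38.1 ± 23.1 CPM in p66Low aggressive and 6.44 ± 0.406 CPM in p66Low parental tumours, a log2 rise of 2.56 (SE 0.47) with an edgeR adjusted p of 0.00455. Without the 3 lymph-rich libraries p66Low aggressive replicate 3 stood alone in its group. In that fit the Pik3cd rise was 1.00 and its call was lost, and the Tnfrsf9 rise was 3.25. A lone tumour is assumed to vary like the other groups. The T cell markers summed to 24.6 CPM in that tumour and to 73.6 and 129 CPM in the other p66Low aggressive tumours, against 1.85 to 3.25 CPM in p66Low parental tumours, and their part in both rises was not tested.

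The change with selection differed between the lines for 3 of the 30 genes, where 12.4% of all genes tested passed the interaction test. The interaction is also the aggressive p66 difference minus the parental p66 difference. The genes were chosen on those differences, so for the 30 genes the interaction is no independent test and its values are a description. Espn changed more in p66High than in p66Low, by 3.19 on the log2 scale (SE 0.81) with an edgeR adjusted p of 0.0270, where 4.37% of all genes did so. Without p66High aggressive replicate 3 that Espn difference was 2.18, and the Espn call was lost in 7 of 18 alternatives. Pik3cd and Tnfrsf9 changed less in p66High, by -3.03 (SE 0.64) and -2.35 (SE 0.46), where 7.99% of all genes did so. Their edgeR adjusted p were 0.0138 and 0.0106. Here too Tnfrsf9 was kept only through p66Low aggressive tumours, and nothing is read from its call. Without the lymph-rich libraries the differences were 2.70 for Espn, -1.02 for Pik3cd and -2.46 for Tnfrsf9. None of the 3 passed in that fit, with adjusted p of 0.283, 0.145 and 0.0990, and 5 of the 30 genes were at an unadjusted p under 0.05 in that edgeR fit. DESeq2, run on all 12 tumours, called 5.

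**Figure D4:**
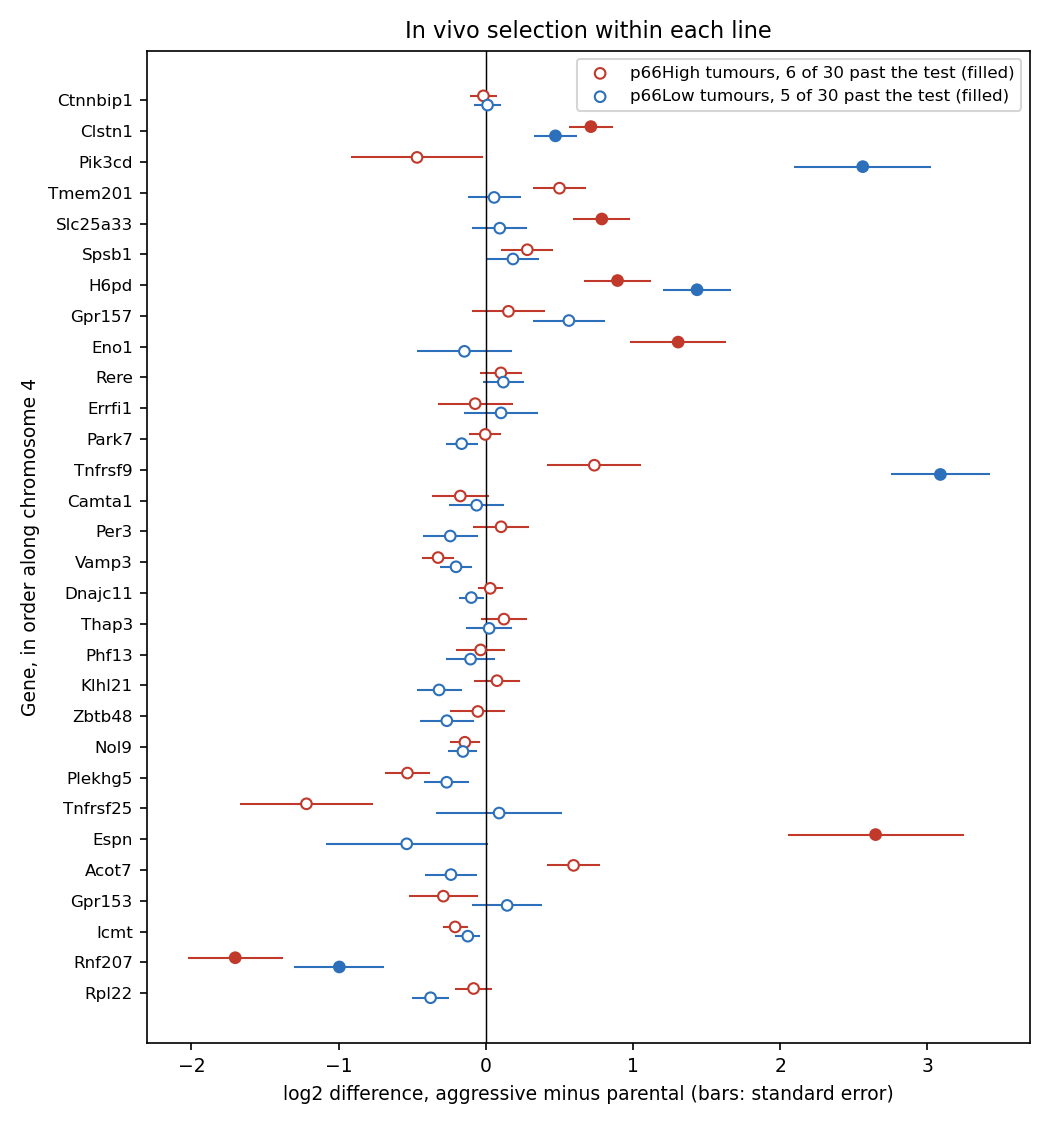
Log2 difference, aggressive minus parental, of the 30 genes in p66High and in p66Low tumours, with standard errors as bars and filled points for an adjusted p under 0.05. The medians are 0.01 and -0.08, Espn stands out to the right in p66High alone, Pik3cd and Tnfrsf9 stand out in p66Low alone, and Rnf207 lies to the left in both.

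Genes outside the named run that work with the members were tested for the p66 comparisons, on lists drawn up with earlier results of these tumours known. Pgd lies between Mtor and Ctnnbip1, and Gm5506 may share reads with Eno1. Both are therefore tied to the chosen genes, and nothing is read from their calls, which the counts below include. Of 93 such genes tested, 19 passed in p66High against p66Low parental tumours (5 higher and 14 lower), where 8.08% of all genes tested passed (3.98% higher and 4.1% lower). In p66High against p66Low aggressive tumours 21 passed (5 higher and 16 lower), where 21% of all genes did (8.92% higher and 12.1% lower). These shares of all genes also stand beside each list below, where a count near them is not read as a result about the list.

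Rpl22l1, on chromosome 3, is the paralogue of Rpl22, and in mice Rpl22 is known to hold Rpl22l1 RNA down. It had 94.9, 137 and 99.1 CPM in p66High parental tumours, against 62.2, 49.3 and 71.8 CPM in p66Low parental tumours. Values in aggressive tumours were 88.9, 99.97 and 95.6 CPM in p66High, against 49.7, 39.0 and 35.2 CPM in p66Low. All 6 p66High tumours were above all 6 p66Low tumours, the opposite of Park7. The log2 difference was 0.85 (SE 0.18) in parental tumours, with an edgeR adjusted p of 0.0124, and 1.20 (SE 0.18) in aggressive tumours, with an edgeR adjusted p of 0.00114. The aggressive call held in all 19 alternatives. The parental call was lost without p66Low parental replicate 1 or p66High parental replicate 2, with an adjusted p of up to 0.0540.

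Of the other 15 genes listed as glycolytic, beside Eno1, 9 were lower and none higher in p66High parental tumours, with a median log2 difference of -0.94, against -0.01 for all genes. One of the 9 is Gm5506, the copy that may share reads with Eno1, so nothing is read from its call. Ldha, which turns pyruvate into lactate, had a log2 difference of -1.36 (edgeR adjusted p of 0.00110), Hk1, the first enzyme of glycolysis, -0.93 (adjusted p 0.00582), and Pfkl, a phosphofructokinase, -0.87 (adjusted p 0.00840). In aggressive tumours none of the 15 passed edgeR's test, with a median of 0.23, while 2 were at an unadjusted p under 0.05 and DESeq2 called 1. These 3 lie on chromosomes 7 and 10. Ldha, Hk1 and Pfkl also passed the interaction test, at log2 differences of 1.31, 0.82 and 0.94 with edgeR adjusted p of 0.00906, 0.0435 and 0.0252.

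Of 11 genes of the pentose phosphate route and hexose transport, which H6pd and Slc2a5 belong to, Rpe, an epimerase on chromosome 1, was higher in p66High parental (log2 difference 0.56, edgeR adjusted p 0.00482) and p66High aggressive tumours (0.69, adjusted p 0.000899). Pgd, the 6-phosphogluconate dehydrogenase, was lower in both, by -1.44 and -0.98. Pgd itself lies on chromosome 4 between Mtor and Ctnnbip1 (chr4:149149991-149166771), in a stretch that shared the shift, so nothing is read from its calls. In aggressive tumours Hsd11b1, the glucocorticoid-activating enzyme that uses NADPH made by H6pd, and Rpia, an isomerase, were also lower, by -2.11 (edgeR adjusted p 0.0216) and -0.48 (adjusted p 0.0374). Both calls were lost without the lymph-rich libraries, with differences of -1.10 (adjusted p 0.422) and -0.13 (adjusted p 0.753).

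The ErbB receptors, which Errfi1 restrains, gave 1 call of 4 in each comparison. Erbb4 was lower in p66High, by -4.38 on the log2 scale in parental tumours (edgeR adjusted p 0.00223), and passed in aggressive tumours too (adjusted p 0.00210). It had 0.226, 0.387 and 0.210 CPM in p66High parental tumours, against 5.97, 6.13 and 4.58 CPM in p66Low parental tumours, and at most 0.152 CPM in p66High aggressive tumours, against 3.23, 0.805 and 1.57 CPM in p66Low aggressive tumours. Since 2 of the 3 p66High aggressive tumours had 0 counts, the fitted aggressive difference depended on few counts and ranged from -9.21 to -4.15 over the alternatives.

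Of 9 class I PI3-kinase genes, the kin of Pik3cd, Pik3r3 and Pik3ca were higher in p66High parental tumours, by 0.67 and 0.30 (edgeR adjusted p 0.0305 and 0.0465). In aggressive tumours Pik3r5, a regulatory subunit, and Inpp5d (SHIP1), a phosphatase of blood cells, were lower in p66High, by -2.23 (edgeR adjusted p 0.00268) and -1.55 (adjusted p 0.00106). Both were highest in p66Low aggressive replicates 1 and 2, the lymph-rich ones, and without the 3 such libraries the differences were -0.96 (adjusted p 0.131) and -0.92 (adjusted p 0.0317).

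Of 17 clock genes, the fellows of Per3, Hlf and Tef were lower in p66High parental tumours, by -0.93 and -0.57 (edgeR adjusted p 0.0367 and 0.0391), and both are PAR-domain factors driven by the clock. In aggressive tumours Dbp, the third of that family, was lower by -0.86 (edgeR adjusted p 0.0422) and Gm129 (Ciart), a clock repressor, by -2.46 (adjusted p 0.00144). The medians of the 17 were -0.46 and 0.07. The hour of tumour collection is not given in the sources used here.

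Of 11 genes of beta-catenin signalling, which Ctnnbip1 blocks, none passed edgeR's test in parental tumours, while 3 were at an unadjusted p under 0.05 and DESeq2 called 2. In p66High aggressive tumours Lgr5, a stem cell receptor, and Ctnnb1, beta-catenin itself, were higher, by 2.16 (edgeR adjusted p 0.00353) and 0.44 (adjusted p 0.0133). Lef1 and Tcf7, transcription factors that T cells also make, and Axin2 were lower, Axin2 by -1.62 (edgeR adjusted p 0.0314). The Axin2 difference without the lymph-rich libraries was not examined. Lef1 was lower by -5.83 (edgeR adjusted p 0.00861) and Tcf7 by -3.15 (adjusted p 0.0198), and without the lymph-rich libraries they were lower by -4.46 (adjusted p 0.0125) and -0.44 (adjusted p 0.680).

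Of 10 NRF2 genes, set beside Park7 for their shared link to oxidative stress, none passed edgeR's test in parental tumours, with 1 at an unadjusted p under 0.05 and none called by DESeq2. In aggressive tumours Gclc, a glutathione-synthesis subunit, Slc7a11, the cystine carrier, and Keap1, the NRF2 inhibitor, were lower in p66High, by -0.43, -1.53 and -0.35 (edgeR adjusted p 0.00750, 0.0122 and 0.0314). None of the 3 calls held without the lymph-rich libraries, where the differences were -0.48 for Gclc, -0.48 for Slc7a11 and -0.45 for Keap1, with adjusted p of 0.0881, 0.576 and 0.106. Of 5 genes of TNF receptor signalling, set beside Tnfrsf9 and Tnfrsf25, Tnfsf9, the ligand of Tnfrsf9, was lower in p66High parental tumours, by -3.28 (edgeR adjusted p 0.00661). In aggressive tumours the adaptors Traf1 and Traf2 were lower, by -2.14 (edgeR adjusted p 0.00817) and -0.30 (adjusted p 0.0479), and by -0.99 (adjusted p 0.267) and -0.32 (adjusted p 0.256) without the lymph-rich libraries.

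Of 5 tested SNARE partners of Vamp3, Stx6, on chromosome 1, was higher in p66High in both comparisons, by 0.60 (edgeR adjusted p 0.0300) and 0.62 (adjusted p 0.0132). Of 5 CAAX processing genes, the fellows of Icmt, none passed in either comparison by edgeR or DESeq2, with 0 in parental and 2 in aggressive tumours at an unadjusted edgeR p under 0.05.

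Of the genes named from these lists, Ldha, Hk1, Pfkl, Rpl22l1, Erbb4 and Rpe kept their parental calls without the 3 lymph-rich libraries. Gm5506 and Pgd did too, but nothing is read from their calls. Parental calls were lost in that fit for Tnfsf9 (log2 difference -2.87, adjusted p 0.0570), Tef (-0.45, 0.0714), Stx6 (0.62, 0.0746), Pik3r3 (0.65, 0.0839), Pik3ca (0.35, 0.0955) and Hlf (-1.02, 0.0959). Aggressive calls were kept for Rpl22l1, Erbb4, Gm129, Dbp, Inpp5d and Lef1. They were lost for the other genes that the naming rule took, with adjusted p between 0.0585 for Rpe and 0.753 for Rpia. Among these the difference was as large or larger for Pgd (-1.02), Lgr5 (2.40), Gclc, Keap1 and Traf2. It was smaller for Rpe (0.53), Ctnnb1 (0.29), Stx6 (0.42), Rpia, Hsd11b1, Pik3r5, Tcf7, Slc7a11 and Traf1. Over the 19 alternatives, parental calls were lost in 15 for Pik3ca, 10 for Tef, 9 for Hlf and 8 for Stx6. Among the least steady aggressive calls, Traf2 was lost in 9, and Dbp and Rpia in 8 each.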

How the data were processed

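Total RNA of 12 bulk tumours went into rRNA-depleted stranded libraries, per the labels' protocols. Trimmomatic 0.32, STAR 2.3.0e, featureCounts 1.4.4 and mm10 are named in the submitters' processing notes. The authors deposited whole-number read counts per gene, not normalized. Not given in the sources used here are the annotation, the strand setting and the handling of multi-mapping reads. Tumours were grouped by their titles.

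Counts were filtered with filterByExpr (19370 of 39017 genes), scaled by TMM and fitted with edgeR 4.0.16 in R 4.3.3 (quasi-likelihood, 4 group means, 8 residual degrees of freedom). Benjamini-Hochberg adjustment ran over the whole fit, and calls have an adjusted p under 0.05. Standard errors are the absolute log2 difference over the square root of F. CPM use TMM-scaled libraries, and RPKM divides them by GENCODE exon length. GENCODE (GRCm38) gave positions for 37607 identifiers.

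The genes, lists, markers and tests were chosen with earlier results of these data known. Full values are given for Eno1, for the 6 lowest and 4 highest genes by the mean of both p66 differences, for genes past a selection or interaction test, and for Park7, Per3, Errfi1, Pik3cd and Rpl22. Outside the run, the nearest coding genes on each side and up to 4 called genes per list are named, and Axin2, Mtor, Fbxo2, Ski and Morn1 were added after their values were seen. Alternatives were other scalings, DESeq2 1.42.0, no filter, fits of 6 tumours, summed title numbers, and leaving out each tumour or the lymph-rich libraries. No replicates agreed within sampling noise (lowest chi-square per degree of freedom 20.3). The fit was tested on simulated counts. Some genes that the naming rule took are not reported here.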

Additional observations from a re-analysis of the deposited data

Results flagged for a closer look

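Genes named in the text whose change with selection differed between the p66High and p66Low lines, by the interaction test over all genes, are given with the log2 difference between the lines (p66High minus p66Low). Within the run these were Espn at 3.19, Pik3cd at -3.03 and Tnfrsf9 at -2.35. The interaction is made of the p66 differences on which the run was chosen, so for genes of the run it is no independent test. Nothing is read from the Tnfrsf9 call, since its group mean reached 1 CPM only in p66Low aggressive tumours.

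Among glycolytic genes, Ldha stood at 1.31, Gm5506 (the Eno1 copy) at 1.48, Pfkl at 0.94 and Hk1 at 0.82. The clock output gene Hlf stood at 1.18. The PI3-kinase genes Pik3r5 and Inpp5d stood at -2.82 and -1.87. In beta-catenin signalling, Lef1 stood at -8.66, Tcf7 at -3.99, Lgr5 at 1.97 and Ctnnb1 at 0.53. Slc7a11 stood at -1.78, Hsd11b1 at -3.40 and Tnfsf9 at 3.47. Pik3cd, Pik3r5, Inpp5d, Lef1, Tcf7, Slc7a11 and Hsd11b1 had their highest levels in p66Low aggressive replicates 1 and 2, which are rich in lymph node genes, and the part of those markers was not tested.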

How the results depend on the processing

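The p66 medians of the run kept their sign in every alternative tried. The genes were chosen on these differences in the same tumours, so the choice favoured that sign and its steadiness is no support. With library size alone the aggressive median was -0.87, against -0.79, and leaving out single tumours gave -0.91 to -0.85 in parental and -0.86 to -0.74 in aggressive tumours. Calls among the 30 genes changed from fit to fit. In p66High selection, 6 calls became 1 to 7 without single tumours, 1 without the 3 lymph-rich libraries and 0 when tumours with a shared title number were summed, where 10 genes were at an unadjusted p under 0.05 in edgeR. In p66Low selection, 5 became 3 to 6 without single tumours and 2 without the lymph-rich libraries. Interaction calls, 3, became 2 to 6 without single tumours, 5 with DESeq2 and 0 without the lymph-rich libraries, where 5 were at an unadjusted p under 0.05 in edgeR. Pathway calls in parental tumours, 19, became 9 to 25 without single tumours, 29 with DESeq2 and 9 without the lymph-rich libraries. Pathway calls in aggressive tumours, 21, became 12 to 25 without single tumours and 6 without the lymph-rich libraries. Fits with fewer tumours have fewer residual degrees of freedom, and other causes were not tested. Of single-gene tests, 2581 kept their side of the threshold, 180 lost it and 20 gained it, and none of those calls changed sign. No paired analysis was possible because the replicate numbers of the groups do not come from the labels, whose title numbers are not shared between groups. Genes of under about 1 CPM rest on few counts in the shallowest library.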
